A study of Mus musculus with 6 samples.

Results

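The stomatin family of the mouse consists of 4 genes, Stom, Stoml1, Stoml2 and Stoml3, all of which were measured, among 19937 genes in all. They were taken from probe sets that carry a single gene symbol, and each of the 4 had exactly 1 such probe set and 0 shared with another symbol. The family was chosen by measured values, the levels of Stoml3 and Stom in the knockout relative to the wild type in these same data, so the difference between the genotypes is given for its members as a description, with no test.

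RNA came from olfactory epithelium, dissected as septa and turbinates of the nose on postnatal day 0. The Atf5-/- group, mice of the C57BL6 strain homozygous for loss of the transcription factor gene Atf5, had 3 samples. The Atf5+/+ group, wild-type mice of the same strain, age and heterozygous intercross, also had 3. Every sample was a pool of 3 pups from different litters, hybridised to 1 whole-transcript array. Whether the loss of Atf5 was limited to any cell type is not stated in the labels, so the knockout is described only by its genotype. Levels are log2 values as the authors deposited them, which ran from 4.50 to 14.7, and can be compared between arrays for 1 gene but not between genes. Array medians were 8.67 to 8.72, and Pearson correlations between arrays were 0.992 to 0.994 within a genotype and 0.988 to 0.992 between genotypes. Atf5 itself was at 9.43, 9.44 and 9.50 in knockout arrays, against 10.54, 10.96 and 10.63 in wild-type arrays; which part of the gene was removed is not stated, so its probe set may lie outside that part. In the limma fit over all genes, 745 of 19937 passed an adjusted p of 0.05 (3.74%), 100 higher and 645 lower in the knockout, and 1310 passed with the replicate number as a block.

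Stomatin-family proteins share the SPFH domain (stomatin, prohibitin, flotillin, HflK/C) and form oligomers. Most of them insert into the inner face of a membrane by a hydrophobic hairpin and gather in cholesterol-rich patches, where several regulate ion channels. Stomatin, the product of Stom, was first known as a major protein of the red cell membrane. The product of Stoml3, also called SRO, lies in the cilia of olfactory sensory neurons, the compartment where odorants are detected, and tunes mechanically gated channels in touch neurons. The Stoml2 protein is a scaffold of the mitochondrial inner membrane that binds cardiolipin, prohibitins and proteases, and the Stoml1 protein, which adds a sterol-carrier-like domain, is found on late endosomes.

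The start regions of Stoml3 and Stom, the 2 members that were much lower in the knockout, are shown because they differ in base composition. Each runs from 250 bases before to 50 bases after the RefSeq start of the gene (build GRCm38.p6), 5′ to 3′ on the gene's own strand, with CG dinucleotides in capitals. The Stoml3 region is chr3:53488457-53488756 on the plus strand and the Stom region is chr2:35336960-35337259 on the minus strand.
Stoml3: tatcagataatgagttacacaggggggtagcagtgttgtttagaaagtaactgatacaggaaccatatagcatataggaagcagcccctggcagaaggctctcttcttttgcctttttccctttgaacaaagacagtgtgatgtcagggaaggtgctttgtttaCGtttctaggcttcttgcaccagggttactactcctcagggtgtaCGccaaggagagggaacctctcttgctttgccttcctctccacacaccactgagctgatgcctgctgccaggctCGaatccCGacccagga
Stom: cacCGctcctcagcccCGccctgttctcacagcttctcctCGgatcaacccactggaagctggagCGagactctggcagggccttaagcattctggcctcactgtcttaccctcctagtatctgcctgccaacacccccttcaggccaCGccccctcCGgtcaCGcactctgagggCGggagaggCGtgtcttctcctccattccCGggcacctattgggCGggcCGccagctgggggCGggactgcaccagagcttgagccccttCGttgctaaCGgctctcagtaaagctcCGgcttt
The Stoml3 region held 4 CG dinucleotides and 49.3% G and C, whereas the Stom region held 16 and 63.3%. The Stoml2 region (chromosome 4) held 24 CG dinucleotides and the Stoml1 region (chromosome 9) 11, and the median over 32851 RefSeq start regions of the same length was 7. Stoml3 was thus the only one of the 4 below that median. The regions were searched on both strands for 7 motifs. No member's region held the EBF site (TCCC, any 2 bases, GGGA), present in 0.904% of all start regions, the homeobox core TAATTA (5.29%), the cyclic AMP response element TGACGTCA (1.79%), the C/EBP-ATF composite site TGATGNAA (3.97%) or the TATA box TATAAA (13.6%). The GC box GGGCGG, found in 35.7% of all start regions, occurred 4 times in that of Stom, 1 time each in those of Stoml1 and Stoml2 and 0 times in that of Stoml3. The CCAAT box CCAAT (37.4% of all start regions) matched 1 time, in the Stom region. These matches describe the letters of short windows and say nothing of which factors bind there.

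Stoml3 and Stom were both far lower without Atf5, and Stoml2 and Stoml1 were close to their wild-type levels. Stoml3, the cilia protein of olfactory neurons, was at 10.33, 11.02 and 10.36 in knockout arrays, against 13.07, 13.27 and 13.06 in wild-type arrays. The groups did not overlap, as was so for 10.3% of all genes with the knockout below. The highest knockout array lay 2.04 below the lowest wild-type array. The means were 10.57 ± 0.39 in the knockout and 13.14 ± 0.12 in the wild type (SD, n = 3 each), a log2 difference of -2.57 (SE 0.17), or a knockout level of 16.9% of the wild-type level on this scale. Ranked by difference over all genes, Stoml3 was number 2 from the lowest.

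Stom was at 10.38, 10.40 and 10.31 in knockout arrays, against 12.10, 11.94 and 11.88 in wild-type arrays. Here too the groups did not overlap, with a gap of 1.48 between them. The means were 10.37 ± 0.05 in the knockout and 11.98 ± 0.11 in the wild type (SD, n = 3 each), a log2 difference of -1.61 (SE 0.07). The knockout level was 32.8% of the wild-type level, and Stom was number 12 from the lowest of all differences. In tissue samples of this kind, fewer cells of a type and less RNA per cell cannot be told apart.

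Stoml2, the mitochondrial member, was at 9.86, 10.00 and 9.88 in knockout arrays, against 9.81, 9.89 and 9.77 in wild-type arrays. The groups overlapped, and the log2 difference was 0.09 (SE 0.07). Stoml1, the late endosomal member, was at 9.61, 9.74 and 9.57 in knockout arrays, against 9.52, 9.97 and 9.78 in wild-type arrays. Its groups overlapped as well, with a difference of -0.12 (SE 0.11) and SDs of 0.09 in the knockout and 0.22 in the wild type. The 95% intervals of these differences ran from -0.06 to 0.24 for Stoml2 and from -0.36 to 0.12 for Stoml1, so changes within those limits cannot be told from none here. By the limma fit, 2 of the 4 members were lower and 0 higher, beside 3.24% lower and 0.502% higher (3.74% in either direction) of all genes, a count that the choice of the family already fixed.

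**Figure D1:**
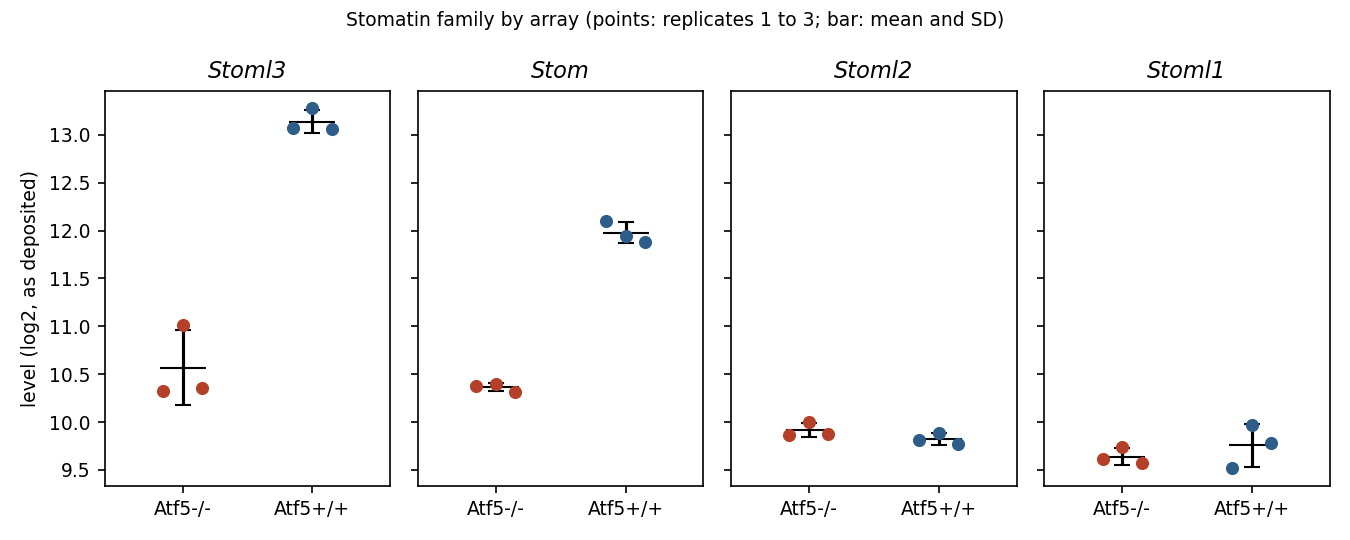
Log2 level of each stomatin-family gene by array, with Atf5-/- left and Atf5+/+ right; points are the 3 arrays of a genotype and bars are the mean and SD. Stoml3 (10.33 to 11.02 in knockout arrays, 13.06 to 13.27 in wild-type arrays) and Stom (10.31 to 10.40 in knockout arrays, 11.88 to 12.10 in wild-type arrays) separate by genotype, while Stoml2 and Stoml1 overlap; levels are not comparable between genes.

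The 2 lowered members shared their highest knockout array, replicate 2, but not their highest wild-type array. Array replicate 2 carried the highest Stoml3 value of both genotypes, 0.45 above the knockout mean and 0.14 above the wild-type mean. Stom deviated from its genotype mean by 0.02, 0.04 and -0.05 in knockout arrays and by 0.12, -0.03 and -0.09 in wild-type arrays, and its highest wild-type array was replicate 1. The SD of Stoml3 over knockout arrays exceeded that of 99.6% of all genes, while that of Stom exceeded 19.8%. The difference between same-numbered arrays was -2.75, -2.26 and -2.70 for Stoml3 and -1.72, -1.54 and -1.57 for Stom for replicates 1, 2 and 3.

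Markers of 2 kinds of ciliated cell were set beside this spread. Omp, the defining marker of mature olfactory neurons and so of the labelled tissue, was at 9.21, 9.06 and 9.07 in knockout arrays and 11.63, 11.00 and 11.40 in wild-type arrays; the deposited values carry no detection calls, so no marker can be called absent. The mean log2 level of 14 mature olfactory neuron markers was 9.21, 9.24 and 9.19 in knockout arrays and 10.85, 10.53 and 10.61 in wild-type arrays, with 12 of the 14 lower by limma, and wild-type replicate 1 was the highest wild-type array for 12 of the 14. The mean of 8 markers of motile ciliated cells, which line the respiratory part of the nose, was 9.63, 9.86 and 9.63 in knockout arrays and 9.54, 9.67 and 9.64 in wild-type arrays. Knockout replicate 2 was the highest knockout array for 7 of these 8 and wild-type replicate 2 the highest wild-type array for 4. Of the 8, 0 passed by limma and 1 had an unadjusted p under 0.05; Foxj1, a master regulator of motile cilia, was at -0.00 (SE 0.07) and the axonemal dynein Dnah5 at 0.18 (SE 0.12). Knockout replicate 2 also had the highest knockout mean in 5 of the other marker lists, by 0.11 over the knockout mean for neuronal precursors, 0.07 for immature neurons, 0.05 for macrophages and 0.03 each for mature neurons (where it was highest for 7 of the 14 markers) and ensheathing glia, against 0.15 for the motile ciliated list. The part of any of these cell types in the Stoml3 spread was not tested. Without knockout replicate 2, the Stoml3 difference was -2.79.

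**Figure D2:**
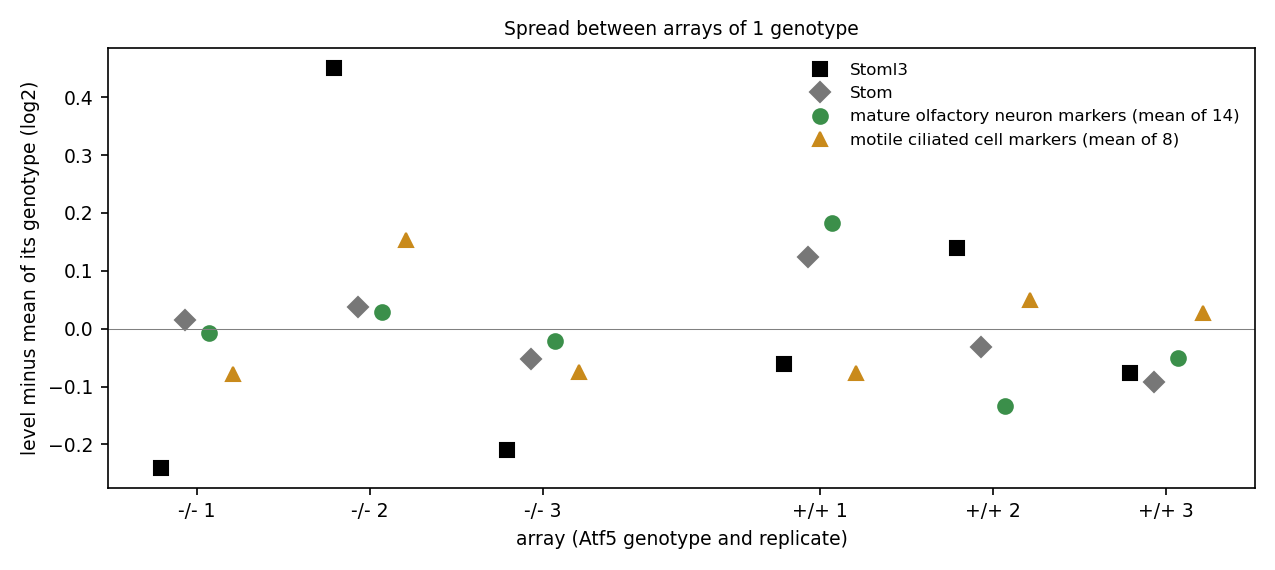
Log2 level minus the mean of its own genotype for Stoml3, Stom, the mean of 14 mature olfactory neuron markers and the mean of 8 motile ciliated cell markers, by array, Atf5-/- left and Atf5+/+ right. In knockout replicate 2, Stoml3 stands 0.45 above its knockout mean and the motile ciliated markers 0.15, against 0.04 for Stom and 0.03 for the mature neuron markers.

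Within each array, the log2 level of a member minus the mean of the mature neuron markers was compared between genotypes; the size of this quantity depends on the probes, and only its difference between genotypes can be read. For Stom this quantity was 1.18, 1.16 and 1.12 in knockout arrays and 1.25, 1.41 and 1.27 in wild-type arrays, a difference of -0.16 (log2). For Stoml3 it was 1.12, 1.78 and 1.16 in knockout arrays and 2.23, 2.74 and 2.45 in wild-type arrays, a difference of -1.12. The outcome depended on the marker: against Omp alone, the same quantity for Stom was 1.17, 1.34 and 1.24 in knockout arrays and 0.47, 0.94 and 0.48 in wild-type arrays, a difference of 0.62 with the opposite sign. For Stoml3 against Omp it was 1.12, 1.95 and 1.28 in knockout arrays and 1.45, 2.27 and 1.66 in wild-type arrays, with overlapping groups and a difference of -0.34. The level of Stoml3 minus that of Stom was -0.06, 0.61 and 0.04 in knockout arrays, against 0.98, 1.33 and 1.17 in wild-type arrays. The groups of this last quantity did not overlap, and it was 0.96 lower in the knockout.

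Genes with the most similar profile over the 6 arrays were taken by the root mean square distance between log2 profiles centred on each gene's mean. Nearest to Stoml3 were Gnal (distance 0.286), the alpha subunit of the olfactory G protein, Faim2 (0.313), an inhibitor of Fas-mediated cell death, Cnga2 (0.347), part of the cation channel that cyclic AMP opens in cilia, Omp (0.395) and Nqo1 (0.410), a quinone reductase. Faim2, Cnga2 and Nqo1 also had their highest knockout value in replicate 2, at 8.59, 9.41 and 8.93. Gnal and Omp had theirs in replicate 1, at 9.52 and 9.21. Nearest to Stom, and closer than any gene was to Stoml3, were Rtp1 (0.088), which helps receptors to the surface, Ano2 (0.095), a chloride channel of cilia opened by calcium, Gng13 (0.099), a G protein gamma subunit, Stxbp5l (0.103), a syntaxin-binding protein, and Cntn4 (0.114), an adhesion molecule. Stom was 0.533 from Stoml3, number 9 in its ranking, while Stoml3 was number 291 in the ranking of Stom. The median distance of all other genes was 1.31 from Stoml3 and 0.816 from Stom. All 6 arrays enter each distance, so the genotype difference by which the family was chosen largely sets these distances, ranks and medians. They therefore describe the size of that difference and are no separate sign of shared regulation.

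**Figure D3:**
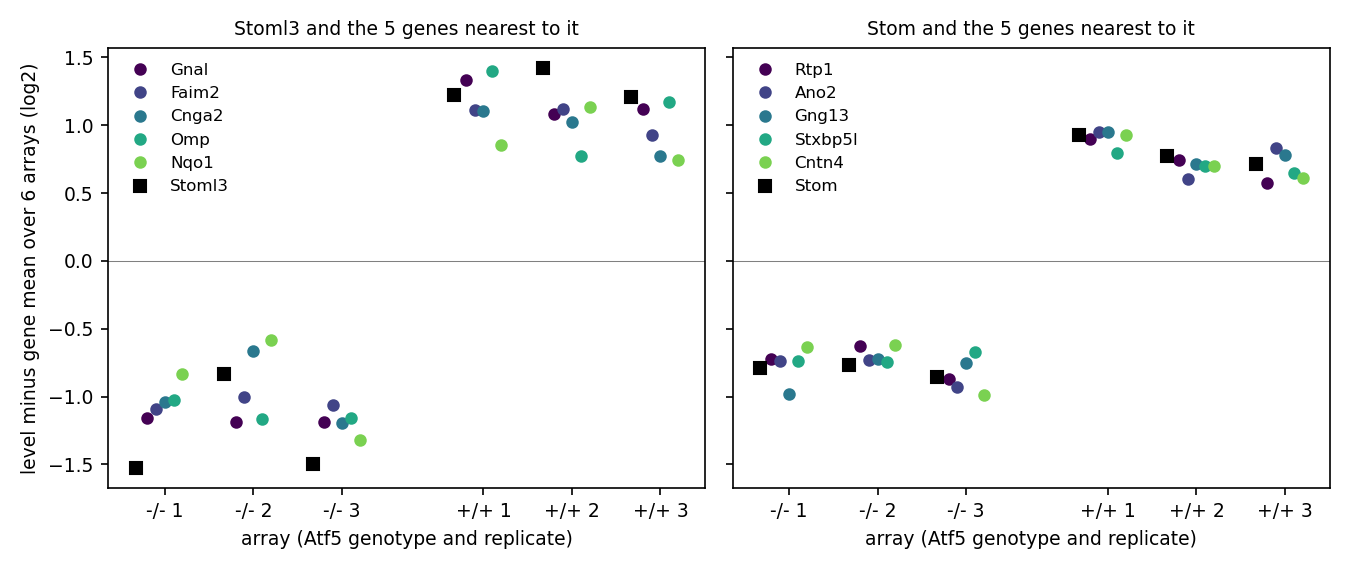
Log2 level minus the gene's mean over 6 arrays for Stoml3 (left panel) and Stom (right panel), each black, with its 5 nearest genes in colour, Atf5-/- arrays left of Atf5+/+ arrays. The genes nearest to Stom lie within distances of 0.088 to 0.114, those nearest to Stoml3 within 0.286 to 0.410.

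Olfactory cilia, where the Stoml3 protein lies, use a cascade of which 12 genes were examined. Gnal, Adcy3, Cnga2, Cnga4, Cngb1, Ano2, Gng13 and Omp also stand among the mature neuron markers above, so the counts of these lists are not independent. By limma, 10 of the 12 fell and 2 did not pass, and the median log2 difference was -1.17. Over all genes 3.24% fell and the median was 0.01. The lowest differences were those of Gnal at -2.36, Omp at -2.23, Cnga2 at -1.93, Gng13 at -1.63 and Ano2 at -1.59. The Stoml3 difference lay below all 12 and that of Stom between those of Gng13 and Ano2. Adcy3, the adenylyl cyclase of olfactory cilia, fell to 9.43 ± 0.05 in the knockout, against 10.17 ± 0.14 in the wild type (SD, n = 3 each; -0.74, SE 0.08, adjusted p = 0.00146), and is named for its place in this cascade after its value was seen.

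Ion channels and transporters regulated by stomatin-domain proteins, or of the same families, included 1 that fell and 11 that did not pass, of 12 measured, with a median of 0.04. Asic1, an acid-sensing ion channel subunit of neurons, was at 8.93, 8.98 and 8.96 in knockout arrays, against 9.43, 9.33 and 9.34 in wild-type arrays. The groups did not overlap, as was so for 10.3% of all genes with the knockout below. Asic1 fell by 0.41 (SE 0.06, adjusted p = 0.00609), and it still passed when each array was dropped in turn (the adjusted p lay between 0.0182 and 0.0331). Asic2 (-0.01, SE 0.06), Asic3 (0.01, SE 0.07) and the mechanically gated channel Piezo2 (0.08, SE 0.09), targets of Stoml3 in touch neurons and named after their values were seen, did not pass. Scnn1a, a subunit of the epithelial sodium channel, was at 0.29 (SE 0.11, adjusted p = 0.243) and passed with the replicate number as a block (adjusted p = 0.0471).

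Other genes with the SPFH domain had small differences. None of the 5 measured passed by limma (1 had an unadjusted p under 0.05), and their differences ran from -0.21 to 0.06. The prohibitin Phb2 of the mitochondrial inner membrane was at 0.06 (SE 0.06) and the flotillin Flot1 at 0.03 (SE 0.06). Phb was not analysed here. Of 7 caveolins and cavins, which shape cholesterol-rich membrane pits, 0 passed and 4 had an unadjusted p under 0.05, with all 7 differences above 0 (median 0.19). Cav1 was at 0.24 (SE 0.08, adjusted p = 0.163) and Cav2 at 0.08 (SE 0.10). Cavin4 had the largest difference, 0.30 (SE 0.12), and its lowest value, 7.99, in wild-type replicate 1. Endothelial cells are rich in caveolae. The mean of 7 endothelial markers was 10.40, 10.36 and 10.37 in knockout arrays and 10.15, 10.33 and 10.18 in wild-type arrays. Of these markers 0 were called and 4 had an unadjusted limma p under 0.05. The median difference of 8 skeletal muscle markers was 0.37, and their mean was lowest in wild-type replicate 1 (8.71). The part of endothelium or muscle in the caveolin and cavin values was not tested.

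Genes around the 2 less changed members were likewise near 0. Of 15 mitochondrial partners of Stoml2, 0 passed and 0 had an unadjusted p under 0.05, and the differences ran from -0.14 to 0.07. Phb2 also stands in this list, and the protease Yme1l1, held in a complex by the Stoml2 protein, was at -0.09 (SE 0.09). Of 9 genes of late endosomes and sterol transfer, set beside Stoml1, 0 passed and 1 had an unadjusted p under 0.05, with a range from -0.17 to 0.15. The sterol transporters Npc1 and Npc2 were at 0.10 (SE 0.09) and 0.14 (SE 0.07).

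**Figure D4:**
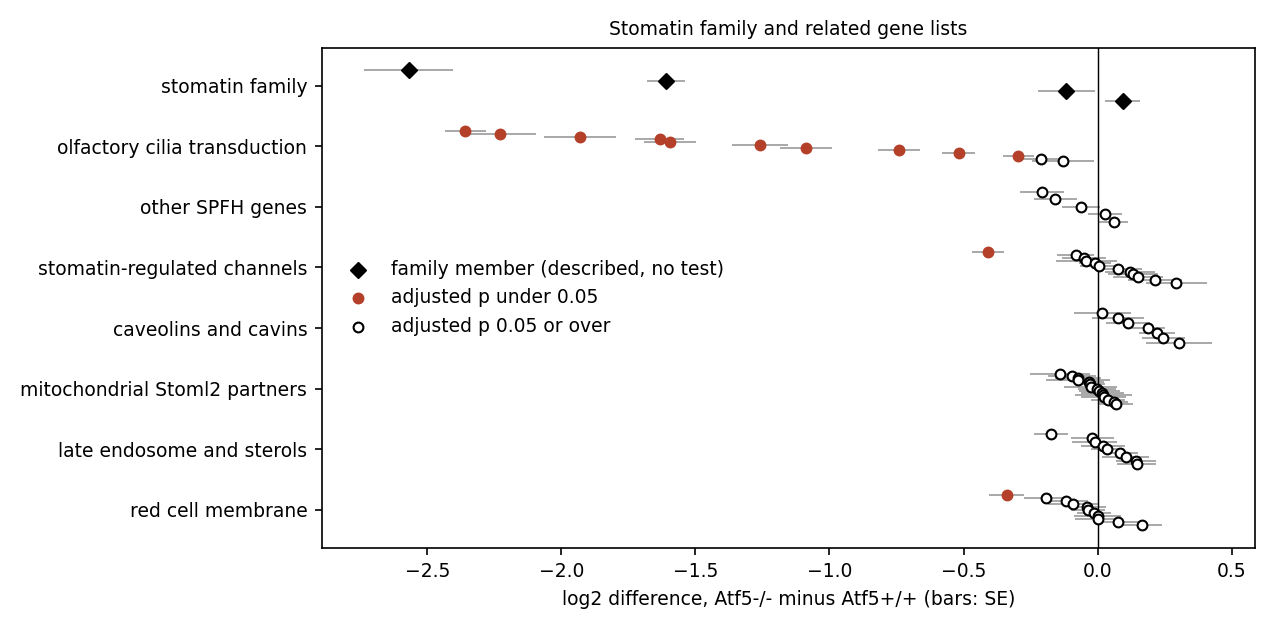
Log2 difference, Atf5-/- minus Atf5+/+, with SE, for the stomatin family (black diamonds, described without a test) and for 7 lists of related genes; filled circles passed an adjusted p of 0.05 by limma. In the olfactory cilia list 10 of 12 genes passed, against 1 each among channels and red cell membrane genes and 0 in the other 4 lists.

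Red cells carry much stomatin, so their genes were examined beside Stom. Of 11 genes of the red cell membrane and its skeleton, 1 fell and 10 did not pass. Dmtn, an actin-bundling protein that is also found outside red cells, fell to 9.28 ± 0.08 in the knockout, against 9.62 ± 0.03 in the wild type (SD, n = 3 each; -0.34, SE 0.06, adjusted p = 0.0206), and it kept its call only when knockout replicate 3 was the array left out (otherwise the adjusted p was up to 0.0889). The mean of 9 measured red cell and erythroblast markers was 7.46, 7.46 and 7.54 in knockout arrays and 7.44, 7.54 and 7.38 in wild-type arrays. These groups overlapped, 0 of the 9 passed and 1 had an unadjusted p under 0.05. That 1 was Alas2, the heme synthesis enzyme of erythroblasts, at 0.39 (SE 0.17, adjusted p = 0.307), with differences of 0.42, 0.28 and 0.48 between same-numbered arrays, and it passed with the replicate number as a block (adjusted p = 0.00982). The embryonic globins Hbb-bh1 and Hba-x were at 0.00 (SE 0.08) and -0.06 (SE 0.08), and the adult globins were not analysed here. The filter on dim genes kept 4 of the 9 markers. Hbb-bh1 averaged 5.80 in both genotypes, where the lowest deposited value was 4.5. These markers therefore cannot show whether the amount of red cell RNA differed.

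Touch and pain neurons, the other known site of Stoml3, were represented by 10 measured markers. Of these, 1 rose, 1 fell and 8 did not pass, beside 3.74% of all genes called in either direction. The filter on dim genes kept 4 of the 10. The sodium channel Scn10a was at 0.07 (SE 0.12). Scn9a, a sodium channel known in olfactory as well as pain neurons, fell by 0.92 (SE 0.10, adjusted p = 0.00192), and the intermediate filament Prph rose by 0.43 (SE 0.08, adjusted p = 0.021), a call kept only when knockout replicate 3 was the array left out (otherwise the adjusted p was up to 0.087). The list mean was 8.28, 8.25 and 8.26 in knockout arrays and 8.36, 8.32 and 8.28 in wild-type arrays. Of 6 tooth enamel genes 2 were lower, the matrix genes Enam (adjusted p = 0.0301) and Amelx (adjusted p = 0.0499), but 0 passed with the trended and robust prior, 3 with the replicate block, and 0 to 4 with 1 array left out (4 without wild-type replicate 3, 1 without knockout replicate 3, 0 for each of the other arrays). The list means were 8.09, 7.69 and 8.32 in knockout arrays and 9.90, 9.65 and 8.54 in wild-type arrays. Wild-type replicate 3, whose enamel mean was nearest to the knockout arrays, also had the lowest wild-type values of Stom (11.88) and Stoml3 (13.06). Stoml3 was nearly as low, at 13.07, in wild-type replicate 1, whose enamel mean was the highest (9.90). The part of enamel tissue in these values was not tested.

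The chromosomal neighbours of the members had small differences. Among the 4 measured genes on each side of Stoml3 on chromosome 3, 0 of 8 passed by limma, 2 had an unadjusted p under 0.05, and differences ran from -0.11 to 0.26. Around Stom on chromosome 2, 0 of 8 passed, 1 had an unadjusted p under 0.05, and differences ran from -0.17 to 0.13. Gsn, the gene of the actin-severing protein gelsolin next to Stom, was at 0.13 (SE 0.06). On the 2 sides of Stoml3, Proser1 was at 0.17 (SE 0.06) and Frem2, an extracellular matrix gene, at 0.12 (SE 0.07). The 2 genes around Stoml3 with an unadjusted limma p under 0.05 were Proser1 and Lhfp, the latter at 0.26 (SE 0.09). Around Stoml2 and Stoml1, 0 of 8 passed in each case, with 1 and 2 at an unadjusted p under 0.05.

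**Figure D5:**
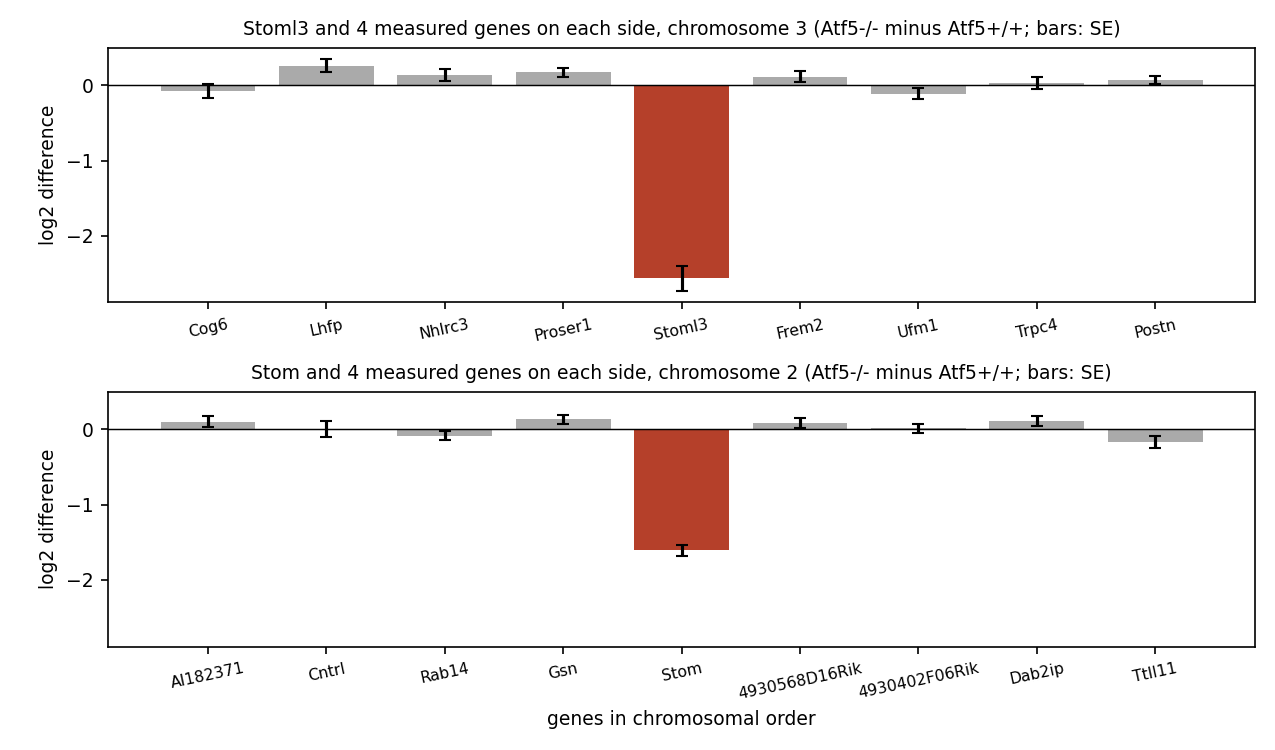
Log2 difference, Atf5-/- minus Atf5+/+, with SE, of Stoml3 (upper panel) and Stom (lower panel) in red and of the 4 measured genes on each side in chromosomal order in grey. The neighbours lie between -0.17 and 0.26, against -2.57 for Stoml3 and -1.61 for Stom.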

How the data were processed

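The authors deposited 1 log2 value per probe set and array; the tools named per the submitters' processing notes are affy, limma and RMA, with the order of steps and the base of the logarithm not given in the sources used here, and the values were read as log2 from their range. RMA as generally defined equalises the arrays' distributions, so a shift common to most transcripts would not be seen, and low levels are compressed.

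Of 34760 rows, GEO's platform annotation gave a single symbol for 21640, several for 1321 and none for 11799. The probe set with the highest mean over 6 arrays stood for each of 19937 genes. Sequences and gene order came from RefSeq (GRCm38.p6); all 4 members matched. Knockout minus wild type was fitted by lmFit and eBayes of limma 3.58.1 in R 4.3.3, 2-sided, without trend or covariates. P-values were adjusted by Benjamini and Hochberg over all genes, with 0.05 as the threshold, and SE is limma's moderated standard error. Intervals are at 95%. The fit was tested on simulated data.

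Group and replicate number came from titles. By the rule that every same-number correlation of deviations from group means exceed 0.1 (0.295, 0.122 and 0.234), the numbers were taken to pair the samples. This was read from the data and not from the labels. Correlations between different numbers ran from -0.259 to 0.029. Deviations cancel within a group, so these correlations are not independent. The main fit was unpaired, with the block as an alternative. The members and gene lists were chosen with earlier results of these data known. Named genes were the members, Atf5, up to 5 called genes per list or its first 2, the first 2 of 3 marker lists, and the 5 nearest profiles of Stoml3 and Stom; neighbouring genes were added after the data were seen. Alternatives were the replicate block, quantile normalization, median centring, leaving out genes below the 30th percentile, the mean of probe sets, a trended and robust prior, and leaving out each array. The number of arrays limits the precision, and the table held 0 columns of other samples.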

Additional observations from a re-analysis of the deposited data

How the results depend on the processing

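Over 12 other settings, 149 of 168 recomputed values stayed within the replicate spread or within 1.5 times the reported count, and 19 moved. A change of direction could be marked only for Stoml3 and Stom, with 0 marked. The block, the filter on dim genes, the mean of probe sets and the trended and robust prior leave a member's difference unchanged by construction. Those settings therefore say nothing of how stable the members' differences are. All 4 members passed the filter on dim genes. Leaving out 1 array gave log2 differences of -2.79 to -2.45 for Stoml3, -1.66 to -1.55 for Stom, 0.05 to 0.13 for Stoml2 and -0.23 to -0.01 for Stoml1. The count of genes changed was 1310 with the replicate number as a block (421 higher), and 432 without dim genes (358 lower). With 1 array left out it was 410 to 649, 27 to 127 higher and 383 to 584 lower, lowest in each case without wild-type replicate 1. It was 455 without knockout replicate 1 (52 higher, 403 lower), and 31 and 53 were higher without knockout replicate 2 and wild-type replicate 3. With the block, 2 channel genes passed, Asic1 and Scnn1a, as they did without knockout replicate 3 (1 to 2 with 1 array left out), and 0 to 1 red cell membrane genes passed with 1 array left out. The block moved no other pathway list's count by more than 1.5 times. Among marker lists it took the calls to 1 for red cells (Alas2), sustentacular cells (Cyp2g1) and ensheathing glia (Fabp7) and to 2 for skeletal muscle (Myh3 and Mylpf), each from 0 without it. The 3 arrays per genotype limit what can be called, and signal over background is not given by the deposited values.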

Other observations

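Other cell types of the tissue were checked by marker lists, with calls by limma. Of 10 immature olfactory neuron markers 3 fell (Dcx, Gap43 and Gng8), 7 did not pass and the median log2 difference was -0.16; without wild-type replicate 1, or without wild-type replicate 2, Dcx alone passed. Of 6 neuronal precursor, 6 sustentacular cell, 6 horizontal basal cell and 4 ensheathing glia markers, 0 passed, with 1 in each list at an unadjusted p under 0.05 and medians of 0.06, -0.11, -0.17 and -0.01. With replicate numbers blocked, the sustentacular marker Cyp2g1 (-0.36, adjusted p = 0.076 without and 0.0114 with the block) and the glial marker Fabp7 (-0.25, adjusted p = 0.0588 without and 0.0412 with the block) passed; Cyp2g1 also passed without knockout replicate 1 and Fabp7 with quantile normalization, both with the trended and robust prior, and the basal cell keratin Krt14 passed without wild-type replicate 3. Of 8 macrophage markers 0 passed and 3 had an unadjusted p under 0.05 (median 0.15). Of 8 skeletal muscle markers 0 passed and 1 had an unadjusted p under 0.05 (median 0.37); their mean was 9.58, 9.73 and 9.91 in knockout arrays and 8.71, 9.71 and 9.60 in wild-type arrays, with wild-type replicate 1 apart. Myh3 and Mylpf passed with the block, and Myh3 without wild-type replicate 2.

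The array order seen for Stoml3, with replicate 2 highest in both genotypes, was shared by 75 of the 645 genes that were lower in the knockout (11.6%) and by 3399 of all 19937 genes (17.0%). Stoml2 and Stoml1 also had their highest value of each genotype in replicate 2, Stoml2 at 10.00 in knockout and 9.89 in wild-type arrays, Stoml1 at 9.74 in knockout and 9.97 in wild-type arrays.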
